A study of Mus musculus with 15 samples.

Results

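The constitutive proteasome subunits are the proteins from which the standard 26S proteasome is built. Every gene symbol made of Psma, Psmb, Psmc or Psmd and a number was taken, leaving out the interferon-inducible catalytic subunits Psmb8, Psmb9 and Psmb10 and the Psme activators. The rule gave 36 of the 24015 genes counted, namely 8 Psma, 8 Psmb, 6 Psmc and 14 Psmd genes. They were followed in RNA-seq of c57bl/6 mouse embryonic fibroblasts (MEFs) labelled WT, Nsd2(+/+), or NSD2 KO, Nsd2(-/-), all grown in DMEM with donor bovine serum. Nsd2 encodes a histone H3 lysine 36 methyltransferase and is listed under its older symbol Whsc1. Each genotype was sampled naive or pretreated, and at 0 h or after 2 h with mouse recombinant IFNβ at 100 units/ml. Pretreated cells had received IFNβ for 3 h and were then washed and kept for 24 h in its absence, so that 2 h with IFNβ was a renewed exposure for them. The 8 groups held 2 libraries each, except KO naive 2 h with 1, which gave 8 WT and 7 KO libraries.

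The proteasome degrades proteins that carry ubiquitin chains. Its 20S core is a barrel of stacked rings, with outer rings of alpha subunits (Psma) that gate the entrance and inner rings of beta subunits (Psmb) that hold the proteolytic sites. The 19S cap contains a ring of ATPases (Psmc) that unfold substrates, and non-ATPase subunits (Psmd) that bind and remove ubiquitin or hold the cap together. Subunits are assembled at fixed proportions, and transcription factors such as NRF1 (Nfe2l1) are known to raise subunit genes together when proteasome capacity falls short. In cells exposed to interferons, Psmb9, Psmb10 and Psmb8 can take the places of the constitutive catalytic subunits Psmb6, Psmb7 and Psmb5, which gives the immunoproteasome used in antigen processing.

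The libraries held 17170845 to 44116418 gene counts. The 36 subunit genes together took 3527 to 4690 CPM, the count of a gene scaled to a fixed library size, of these. The abundant transcripts Rn45s and Lars2 took 10.6% to 29.4% of the gene counts and were lowest in WT naive 0 h replicate 1, WT pretreated 2 h replicate 1 and KO pretreated 0 h replicate 2, which had the highest plain CPM sums. Levels below are CPM scaled with edgeR's TMM factors, on which the subunit sum ranged from 3442 to 4093. Whsc1 stood at 108 to 146 TMM-scaled CPM in WT and 95.6 to 110 in KO libraries (log2 change -0.28, edgeR adjusted p = 2e-11), and a whole-gene count does not test for a partial deletion. The summed level of 10 fibroblast markers was 10797 to 13411 in WT and 8652 to 10258 in KO libraries. Of these, 10 of 10 exceeded 1 CPM in at least 1 KO library, 8 of 10 in at least 1 WT library. Single fibroblast markers went both ways over the 4 conditions, 5 of 10 called higher in KO and 4 lower. Of all genes, 41.3% were called higher and 38.1% lower. Median levels were 5.95 in WT and 94.0 in KO libraries for Pdgfra, and 18.2 and 2.66 for Dcn. Sums of 5 epithelial markers (17.4 to 31.0 in WT, 52.3 to 74.1 in KO), 4 nerve and glia markers (16.1 to 20.7 and 53.6 to 67.3) and 8 macrophage and blood markers (13.5 to 20.3 and 5.77 to 8.49) also separated the genotypes, and their part in the genotype results was not tested. Defining markers were under 1 CPM in every library of the genotype for 5 of 8 macrophage and blood genes in WT, 6 of 8 in KO, and at least 4 of 5 endothelial genes in both. In RNA from bulk cultures, fewer cells of a type and less RNA per cell cannot be told apart.

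Of the 36 genes, 35 passed the filter on low counts. Psma8, the testis form of an alpha subunit, had 0 counts in all 15 libraries. Psmb11, the thymus form of a catalytic beta subunit, passed with only 104 counts in all and 1 to 14 per library. The remaining 34 genes were well covered. Per kilobase of exon (GENCODE gene models), their WT medians ran from 7.99 TMM-scaled CPM for Psmd9 to 164 for Psmd2, with a median over genes of 65.3 in WT and 66.2 in KO. The lowest levels per kilobase in WT belonged to Psmd9 (7.99), Psmd10 (13.8) and Psmd5 (14.5). These 3 encode chaperones that help assemble the 19S base and then leave, and are not parts of the finished particle. The highest belonged to Psmd2, a large scaffold subunit of the 19S base, and Psmb3, a non-catalytic beta subunit (154).

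Promoter sequences of 29 of the 36 genes were held (RefSeq, GRCm38.p6). The 250 bases before the start site are printed for Psmd9 (largest fall) and Psma3 (largest called rise) in KO cells over all conditions. Psma4, with the largest positive genotype difference of the naive interferon response, and Psmd8, which rose in every interferon comparison, are also printed. Capitals mark matches, on either strand, to the antioxidant response element TGANNNNGC that NRF1 and NRF2 bind, the CCAAT box, or the interferon-stimulated response element, searched as GAAA, any 2 bases, and GAAA. They lie on chr5:123227940-123228189 (plus strand), chr12:70974373-70974622 (plus), chr9:54950609-54950858 (plus) and chr7:29180674-29180923 (minus), in this order.
Psmd9: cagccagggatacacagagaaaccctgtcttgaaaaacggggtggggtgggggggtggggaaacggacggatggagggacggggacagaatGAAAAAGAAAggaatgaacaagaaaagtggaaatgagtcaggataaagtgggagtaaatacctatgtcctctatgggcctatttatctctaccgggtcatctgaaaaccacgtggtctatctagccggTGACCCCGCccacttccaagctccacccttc
Psma3: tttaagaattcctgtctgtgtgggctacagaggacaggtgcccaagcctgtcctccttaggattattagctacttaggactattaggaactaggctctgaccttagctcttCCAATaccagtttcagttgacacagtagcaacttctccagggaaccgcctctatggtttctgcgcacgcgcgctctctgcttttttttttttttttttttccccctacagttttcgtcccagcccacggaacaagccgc
Psma4: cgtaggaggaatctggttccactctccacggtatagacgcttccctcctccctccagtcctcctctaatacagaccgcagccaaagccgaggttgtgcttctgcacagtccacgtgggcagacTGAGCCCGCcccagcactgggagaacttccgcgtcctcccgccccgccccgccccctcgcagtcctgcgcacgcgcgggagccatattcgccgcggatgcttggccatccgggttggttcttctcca
Psmd8: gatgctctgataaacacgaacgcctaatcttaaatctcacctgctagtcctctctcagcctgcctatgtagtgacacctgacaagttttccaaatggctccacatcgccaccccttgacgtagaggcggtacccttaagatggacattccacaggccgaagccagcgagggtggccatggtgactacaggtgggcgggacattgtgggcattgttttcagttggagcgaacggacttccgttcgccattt
The Psmd9 window held an antioxidant response element 31 bases and an interferon-stimulated response element 159 bases before the start. The Psma4 window held an antioxidant response element (127 bases before), the Psma3 window a CCAAT box (139 bases before), and the Psmd8 window no match to any of these letters. The antioxidant response element was found in 12 of 29 subunit promoters (41.4%) against 38.7% of 27025 genes, and the CCAAT box in 12 of 29 (41.4%) against 37.5%. The interferon-stimulated response element was found in 3 of 29 (10.3%; Psmb3, Psmd4 and Psmd9) against 3.46%. These shares are descriptions of the windows and were not tested.

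In KO cells, genes of the same ring or cap differed from WT in both directions. Over the 4 conditions, 29 of 35 genes passed the test (edgeR's quasi-likelihood test, adjusted p below 0.05 over 13802 genes), 9 higher and 20 lower in KO. The background was high, since 79.4% of all genes tested passed in this comparison (41.3% higher and 38.1% lower). The median log2 change was -0.11 for the subunit genes and 0.025 for all genes. At naive 0 h, 27 of 35 passed (6 higher and 21 lower, beside 67.1% of all genes, 34.3% higher and 32.7% lower, median -0.17), and at pretreated 0 h 24 of 35 (9 higher and 15 lower, beside 64.7%, 32.8% higher and 31.8% lower, median -0.078). Scaled by gene count totals, the split became 0 higher and 15 lower at naive 0 h, 5 and 5 at pretreated 0 h, and 5 and 16 over the 4 conditions. Without the 3 libraries low in Rn45s and Lars2 it was 4 and 19, 6 and 17, and 8 and 20.

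**Figure D1:**
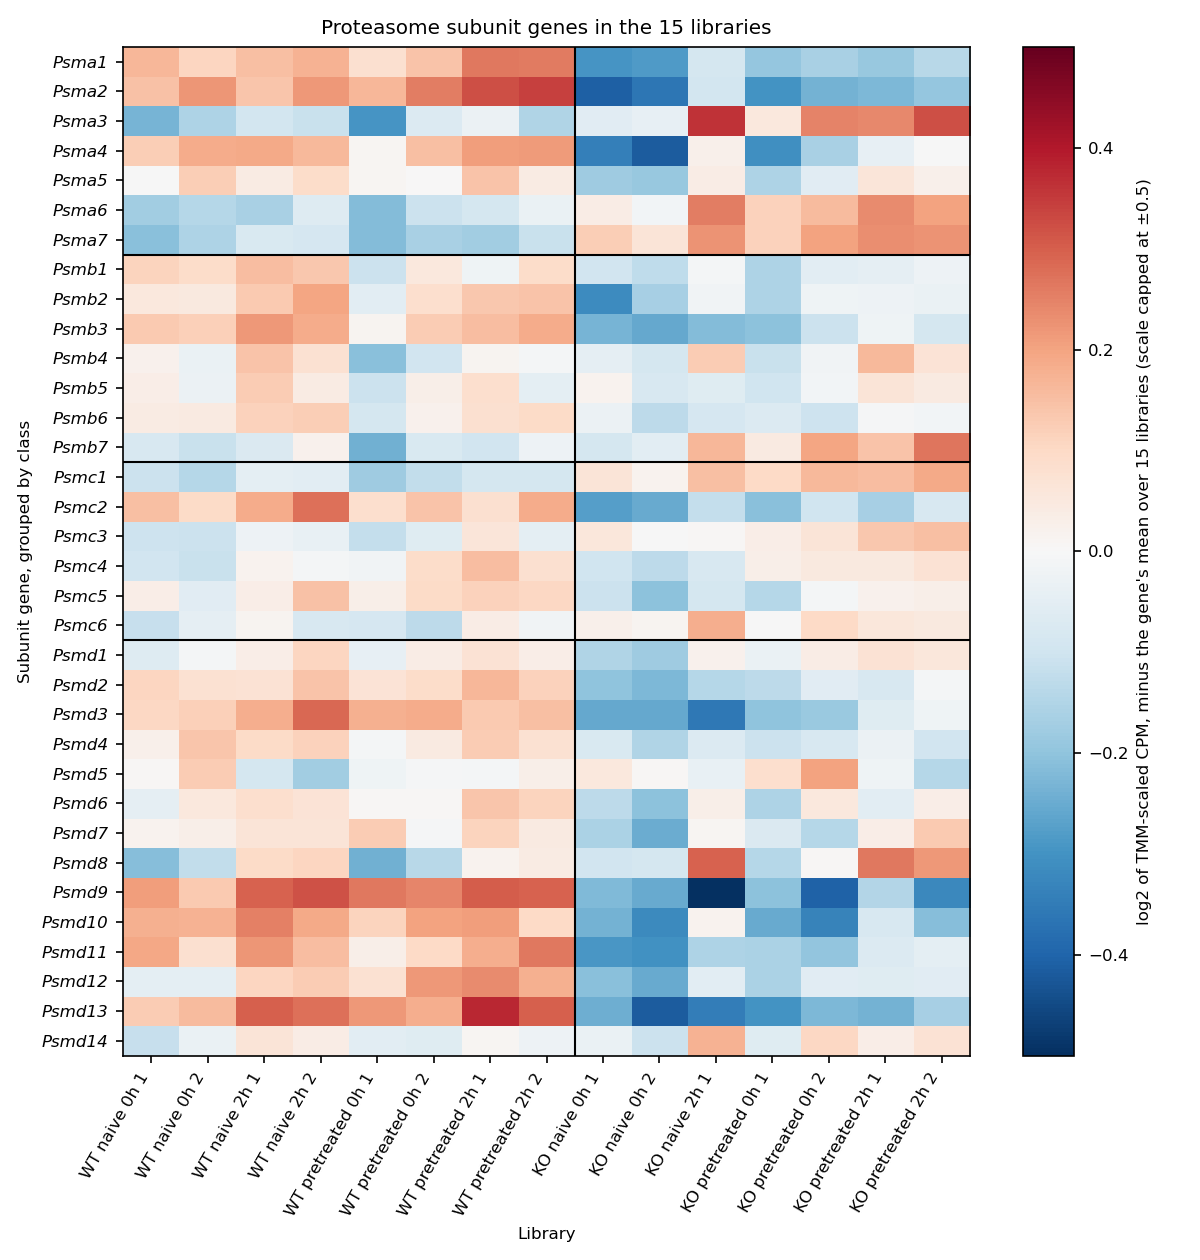
Levels of the 34 well-covered subunit genes (rows, by class) in the 15 libraries (columns), as log2 of TMM-scaled CPM minus the gene's mean over the libraries, capped at 0.5 in either direction. Psma2, Psmd9 and Psmd13 are lower in the 7 KO than in the 8 WT libraries, Psma7 and Psmc1 are higher, and Psmb5 has the narrowest spread of group means.

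In the alpha ring all 7 tested genes were called over the 4 conditions, 3 higher and 4 lower. Of all genes tested, 79.4% were called in this comparison, 41.3% higher and 38.1% lower. Psma2 stood at 139 and 146 TMM-scaled CPM in WT naive 0 h, 138 and 145 in WT naive 2 h, 140 and 149 in WT pretreated 0 h, and 156 and 158 in WT pretreated 2 h. In KO it stood at 94.1 and 97.4 in naive 0 h, 117 in naive 2 h, 102 and 106 in pretreated 0 h, and 107 and 109 in pretreated 2 h. Every KO library lay below every WT library, and the log2 change over the 4 conditions was -0.46 ± 0.024 (SE, edgeR adjusted p = 8.4e-17). Psma1 was 112 to 128 in WT and 86.4 to 100.0 in KO libraries, again with no overlap (-0.35 ± 0.023, edgeR adjusted p = 2.2e-14). Psma4 fell by 0.31 on the log2 scale, and Psma5 by 0.11. Psma4 lay at 94.3 and 89.5 in the KO naive 0 h libraries and rose to 122 in KO naive 2 h, above the lowest WT library (120), so the genotypes overlapped. These genes encode parts of 1 ring, present in equal number in each core.

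Psma3, Psma6 and Psma7 were higher in KO cells. Psma3 stood at 115 and 122 TMM-scaled CPM in WT naive 0 h, 127 and 125 in naive 2 h, 110 and 129 in pretreated 0 h, and 133 and 122 in pretreated 2 h. In KO it stood at 130 and 132, then 174, then 141 and 161, and then 160 and 170 in the same order. Only the KO naive 0 h libraries came within the WT range, and the change over the 4 conditions was 0.33 ± 0.032 (edgeR adjusted p = 1.2e-10). Psma7 was 97.0 to 107 in WT and 118 to 132 in KO libraries (0.33 ± 0.024), and Psma6 80.5 to 91.5 and 92.8 to 112 (0.28 ± 0.025), both with no overlap. As a ratio within each library, which no scaling changes, Psma2 gave 1.08 to 1.30 counts per Psma3 count in WT and 0.644 to 0.739 in KO. This pair was chosen after its values were seen and the ratio was not tested.

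**Figure D2:**
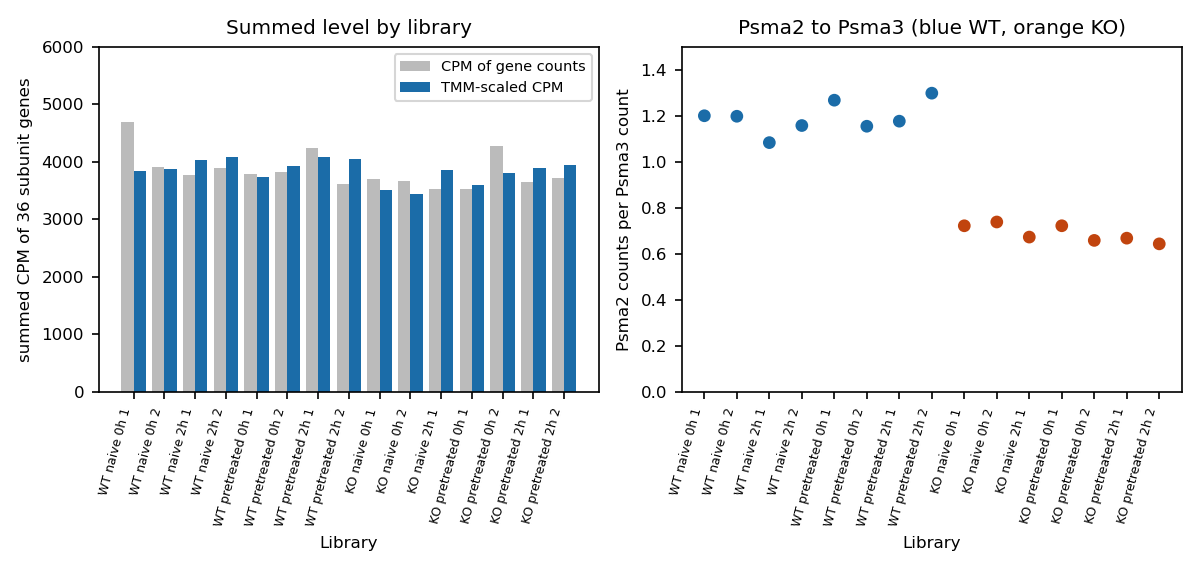
Left, summed CPM of the 36 subunit genes per library (grey, of gene counts; blue, TMM-scaled), on an axis from 0. Right, Psma2 counts per Psma3 count per library, with the 8 WT libraries (blue) at 1.08 to 1.30 and the 7 KO libraries (orange) at 0.644 to 0.739.

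In the beta ring 5 of 8 genes were called over the 4 conditions, 1 higher and 4 lower. The background was 79.4% of all genes, 41.3% higher and 38.1% lower. Psmb3, a structural subunit, stood at 108 to 125 TMM-scaled CPM in WT and 89.9 to 106 in KO libraries with no overlap (-0.31 ± 0.025). Psmb2 (-0.18), Psmb1 (-0.13) and Psmb6 (-0.12) were also lower, Psmb7 was higher (0.19 ± 0.030), and Psmb4 (0.038) and Psmb5 (-0.043) did not pass. Of the 3 catalytic genes, Psmb6 was called lower, Psmb7 higher and Psmb5 not at all. Psmb5, which carries the chymotrypsin-like site, had the narrowest spread of the 34 genes, since its highest group mean (78.4 ± 3.23, SD, n = 2, WT naive 2 h) was 1.10 times its lowest (KO naive 2 h, 71.0 in its 1 library). It passed in none of the 12 comparisons, with edgeR adjusted p from 0.12 to 0.94. Psmb6, which carries the caspase-like site, stood at 100 to 116 in WT and 97.5 to 106 in KO libraries. Psmb7, which carries the trypsin-like site, stood at 92.8 to 111 in WT and 103 to 132 in KO libraries, and both genes overlapped between genotypes.

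Among the 6 ATPases, 3 were higher and 2 lower in KO cells over the 4 conditions, beside 41.3% of all genes higher and 38.1% lower. Psmc1 stood at 97.4 to 106 TMM-scaled CPM in WT and 111 to 126 in KO libraries (0.23 ± 0.023), and Psmc2 at 88.3 to 101 in WT and 69.0 to 79.0 in KO (-0.32 ± 0.028), both with no overlap. These 2 ATPases form a pair in the ring. Psmc6 (0.13), Psmc3 (0.11) and Psmc5 (-0.14) passed with smaller changes, and Psmc4 was not called (-0.039).

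The non-ATPase genes were mostly lower in KO cells, 10 of 14 against 2 higher, beside 38.1% of all genes lower and 41.3% higher. Psmd13, a lid subunit, stood at 84.8 and 86.7 TMM-scaled CPM in WT naive 0 h, 95.7 and 94.0 in naive 2 h, 90.4 and 88.2 in pretreated 0 h, and 101 and 95.6 in pretreated 2 h. In KO it stood at 65.7 and 58.3, then 61.1, then 63.2 and 66.5, and then 65.9 and 69.3. Every KO library lay below every WT library, and the change was -0.53 ± 0.028 (edgeR adjusted p = 1.2e-16). Psmd9 showed the largest fall of all members, from 18.7 to 21.3 in WT libraries to 12.0 to 15.4 in KO libraries (-0.58 ± 0.044, edgeR adjusted p = 6e-13). Psmd3, another lid subunit, stood at 99.7 to 113 in WT and 72.5 to 91.4 in KO libraries (-0.38 ± 0.024, edgeR adjusted p = 6.5e-15). Psmd10 (-0.35), Psmd11 (-0.33), Psmd2 (-0.23), Psmd12 (-0.22) and the ubiquitin receptor Psmd4 (-0.16) were lower with no overlap between the genotypes. The chaperone Psmd5 (0.032) and the scaffold Psmd1 (-0.039) did not pass. Psmd8 (0.15) and the deubiquitinase Psmd14 (0.067) were the 2 called higher. In all, 12 of 35 genes had every KO library below every WT library (background 18.7%) and 3 of 35 had every KO library above (background 19.1%).

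**Figure D3:**
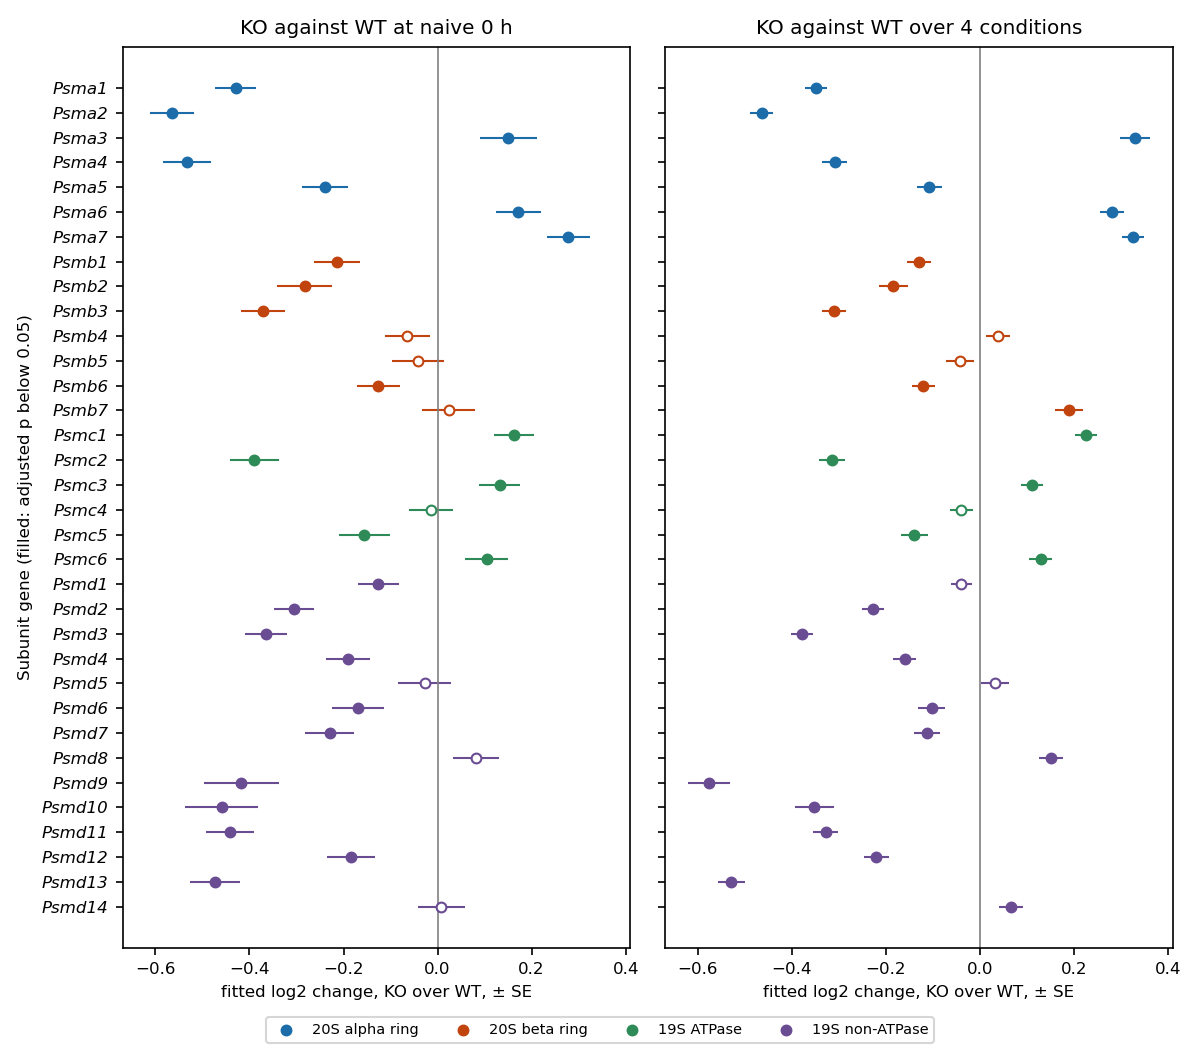
Fitted log2 change, KO over WT, of the 34 well-covered subunit genes (points, with SE bars) at naive 0 h and over the 4 conditions, coloured by class. Filled points passed the test; the alpha ring spans -0.46 to 0.33 over the 4 conditions and the non-ATPase genes reach -0.58 at Psmd9.

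Genes that assemble, feed or regulate the proteasome were taken from lists of partners. Of 15 assembly factors and 19S-associated proteins tested, 10 passed over the 4 conditions, all lower in KO (median -0.21), beside 38.1% of all genes lower. Shfm1, a small lid-binding subunit (-0.71), Zfand2a, a stress-induced 19S-binding protein (-0.75), and Ube3c, a ubiquitin ligase at the proteasome (-0.34), passed with the smallest p values. Pomp, the maturation factor of the 20S core, stood at 53.8 to 65.4 TMM-scaled CPM in WT and 39.7 to 51.7 in KO libraries (-0.41 ± 0.029). Of 14 ubiquitin, shuttle and unfoldase genes, 6 passed, all lower, among them the shuttle factors Ubqln2 (-0.77) and Ubqln1 (-0.40). All 11 regulators passed, 5 higher and 6 lower, beside 79.4% of all genes (41.3% higher and 38.1% lower). Nfe2l1, which encodes NRF1, was lower (-0.26 ± 0.023), while Nfe2l2, which encodes NRF2, was higher (0.38 ± 0.024). Keap1, which encodes the adaptor that marks NRF2 for degradation, was higher (0.55 ± 0.031), as were Stat3 (0.52) and Nfya (0.69). Of the 11 regulators, Keap1, Stat3 and Nfe2l2 had the smallest p values.

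Exposure of naive cells to IFNβ for 2 h raised some subunit genes by small amounts. In WT, 6 of 35 genes were called (5 higher, 1 lower), 17.1% beside 30.6% of all genes (15% higher and 15.6% lower), with a median of 0.075 against -0.018 for all genes. All 6 were non-ATPase genes. None of 7 alpha, 8 beta and 6 ATPase genes was called by edgeR, although 1 in each class had an unadjusted p below 0.05, and DESeq2 called 0 in each. Psmd8, a lid subunit, rose from 132 and 141 to 163 and 165 TMM-scaled CPM (0.27 ± 0.049, edgeR adjusted p = 5.7e-05). Psmd12 rose from 77.7 and 77.9 to 86.8 and 88.0 (0.17 ± 0.051, edgeR adjusted p = 0.012), and Psmd13 from 84.8 and 86.7 to 95.7 and 94.0 (0.15 ± 0.052, edgeR adjusted p = 0.03), and both turned lower, at -0.072 and -0.091, when libraries were scaled by gene count totals. Psmd5 fell from 64.3 and 70.0 to 60.3 and 56.8 (-0.18 ± 0.057, edgeR adjusted p = 0.014). The libraries of the groups did not overlap for any of these 4 genes. The count of 6 became 10 on leaving out WT pretreated 0 h replicate 1. It became 2 or 3 on leaving out replicate 1 or 2 of WT naive 0 h, 3 or 1 for those of WT naive 2 h, and 2 for the 3 libraries low in Rn45s and Lars2. With RLE factors it was 10. By totals it was 1, that 1 being lower, the subunit median was -0.16 against -0.27 for all genes, and 4 of the 6 called genes changed sign (Psmd3, Psmd12, Psmd13 and Psmd14).

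In naive KO cells, genes of all 4 classes rose. Of 35 genes 17 were called, all higher, beside 36.2% of all genes called, 19.1% higher and 17.2% lower, with a median of 0.14 against -0.013 for all genes. Of these, 6 were among the 7 alpha genes, 3 among 8 beta genes, 1 among 6 ATPases and 7 among 14 non-ATPase genes. Psma3 rose from 130 and 132 to 174 TMM-scaled CPM (0.41 ± 0.072, edgeR adjusted p = 4.1e-05), and Psma4 from 94.3 and 89.5 to 122 (0.41 ± 0.062, edgeR adjusted p = 4.9e-06). Psma2 rose from 94.1 and 97.4 to 117 (0.29 ± 0.057, edgeR adjusted p = 0.00015). Psmd8 rose from 143 and 144 to 188 (0.39 ± 0.058, edgeR adjusted p = 3.9e-06). The KO naive 2 h library was above both KO naive 0 h libraries for each of the 17 genes. The 2 h side is 1 library whose spread was assumed to be that of the other groups. The count was 11 without KO naive 0 h replicate 2, 19 without the 3 libraries low in Rn45s and Lars2, and 1 by gene count totals, that 1 being lower. By totals the subunit median was -0.069 against -0.23 for all genes, and 6 of the 17 genes, Psma1, Psmb4, Psmc6, Psmd1, Psmd6 and Psmd12, changed sign to between -0.050 and -0.011.

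**Figure D4:**
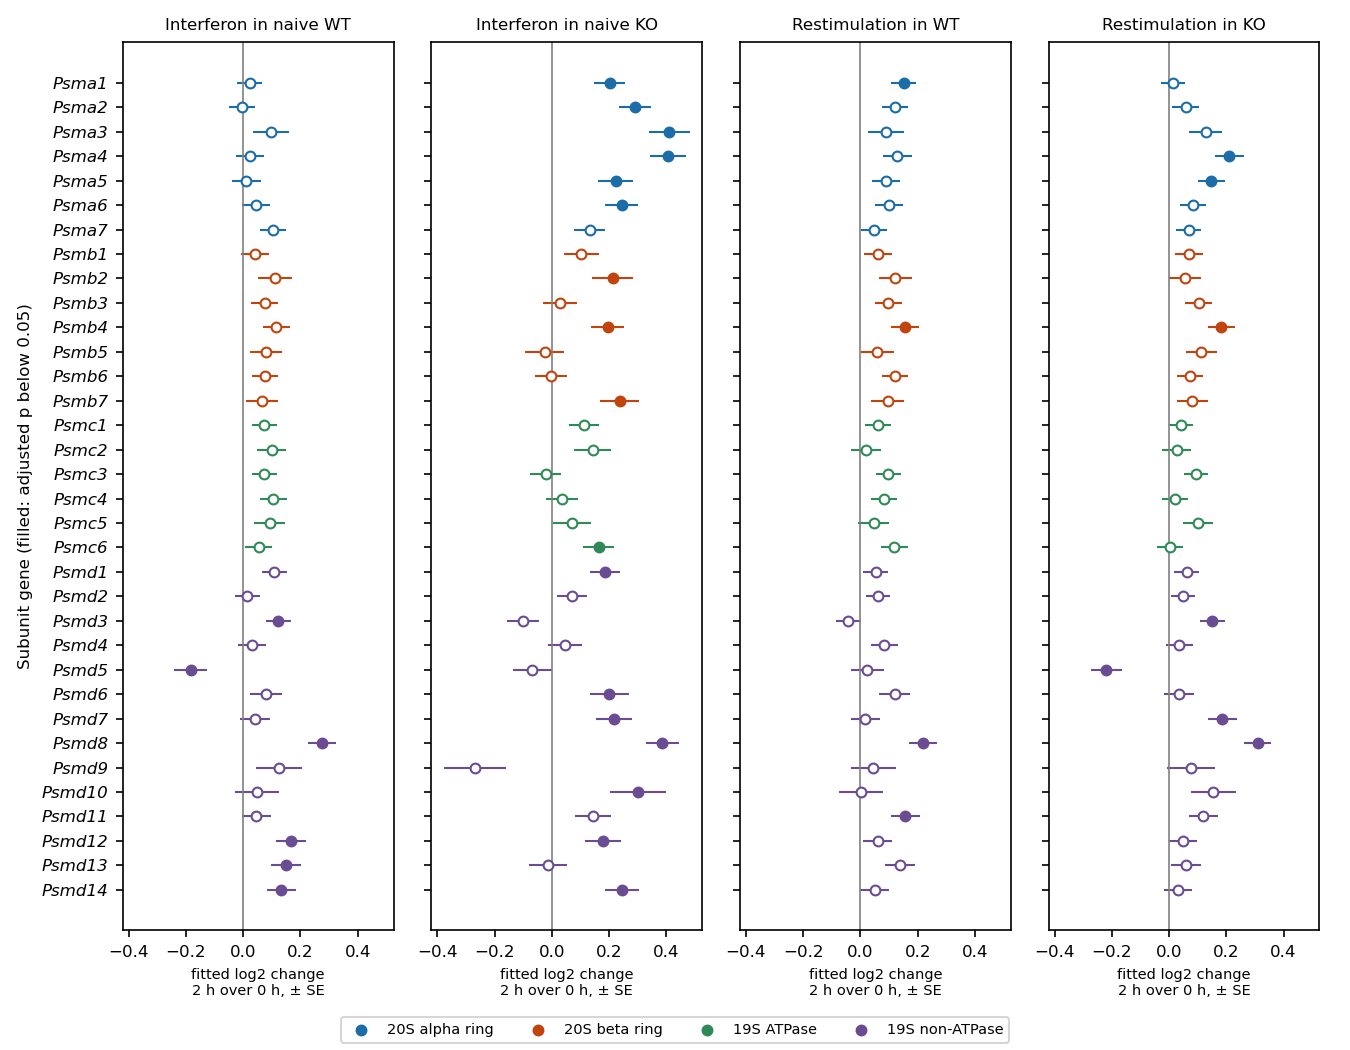
Fitted log2 change, 2 h over 0 h of IFNβ, of the 34 well-covered subunit genes (points, with SE bars) in naive and pretreated cells of each genotype, with filled points where the test was passed. The KO naive panel has 17 filled points to the right of 0, of which 6 changed sign by gene count totals, and Psmd8 is filled in all 4 panels (0.27, 0.39, 0.22 and 0.31).

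The response of naive cells differed between the genotypes for 5 of 35 genes (3 higher and 2 lower in KO), 14.3% beside 15.3% of all genes (8.46% higher and 6.85% lower). Psma4 (0.38 ± 0.080, edgeR adjusted p = 0.00091), Psma3 (0.31 ± 0.095, edgeR adjusted p = 0.023) and Psma2 (0.30 ± 0.073, edgeR adjusted p = 0.0046) rose more in KO cells. Psmd9 (-0.39 ± 0.135, edgeR adjusted p = 0.046) and Psmd3 (-0.22 ± 0.072, edgeR adjusted p = 0.032) had the lower response in KO. Psma2 and Psma4 were called lower in KO than in WT cells at naive 0 h, and after IFNβ the KO library stood at 117 against 138 and 145 for Psma2 and 122 against 136 and 134 for Psma4. The count was 2 on leaving out WT naive 0 h replicate 2 or either KO naive 0 h library, 3 on leaving out either WT naive 2 h library, and 0 by gene count totals. The calls of Psma2 and Psma4 were kept in every fit of this difference that left out a library. None of these fits dropped KO naive 2 h, since that group has no other library, so the dependence of both calls on it was not tested.

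The level after the wash and rest, compared with naive cells, differed for few subunit genes. In WT, 3 of 35 were called (background 24.0%, 12.6% higher and 11.4% lower), with Psmd12 higher (77.7 and 77.9 to 84.9 and 93.6 TMM-scaled CPM, 0.20 ± 0.050, edgeR adjusted p = 0.004), Psmc4 higher (86.7 and 85.7 to 91.4 and 98.7, 0.14 ± 0.046, or -0.029 by gene count totals) and Psmb4 lower (140 and 134 to 119 and 129, -0.15 ± 0.048). The count was 1 without WT naive 0 h replicate 1. In KO, 6 of 35 were called, all higher (background 21.7%, 11.1% higher and 10.6% lower), among them Psma3 (130 and 132 to 141 and 161, 0.20 ± 0.059) and Psmb7 (103 and 106 to 113 and 126, 0.19 ± 0.055). Psmd1 rose from 185 and 181 to 200 and 210 (0.17 ± 0.043), and Psmc4 from 86.5 and 84.5 to 94.5 and 95.7 (0.15 ± 0.045). The KO count was 0 without KO pretreated 0 h replicate 2, 2 and 3 without KO naive 0 h replicate 2 and 1, 10 without KO pretreated 0 h replicate 1, and 11 without WT pretreated 0 h replicate 1. All 7 proliferation markers also rose in both genotypes (medians 0.31 in WT and 0.23 in KO), and their part in these changes was not tested. For the genotype difference of this comparison edgeR called 0 of 35 genes (background 3.22%, 1.71% higher and 1.51% lower), 11 had an unadjusted p below 0.05, all of them higher in KO, and DESeq2 called 0. Without WT pretreated 0 h replicate 2 there were 3 calls, and without KO pretreated 0 h replicate 1 there were 2.

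Renewed exposure of pretreated cells to IFNβ raised single genes. In WT, 4 of 35 were called, all higher (background 22.7%, 12.2% higher and 10.5% lower), and 34 of 35 fitted changes were above 0 with a median of 0.084 against -0.009 for all genes. They were Psmd8 (129 and 139 to 155 and 157 TMM-scaled CPM, 0.22 ± 0.049, edgeR adjusted p = 0.0013), Psma1 (112 and 117 to 128 and 127, 0.15 ± 0.043), Psmb4 (119 and 129 to 139 and 137, 0.16 ± 0.048) and the lid subunit Psmd11 (74.1 and 77.9 to 82.4 and 87.3, 0.16 ± 0.050). In KO, 7 of 35 were called, 6 higher and 1 lower (background 31.5%, 17.9% higher and 13.6% lower), with a median of 0.073, or -0.087 by gene count totals, by which Psma5 and Psmd3, 2 of the 6 higher, changed sign. Psmd8 rose from 139 and 154 to 184 and 178 (0.31 ± 0.047, edgeR adjusted p = 4.4e-06), Psma4 from 96.7 and 107 to 116 and 119 (0.21 ± 0.050, edgeR adjusted p = 0.0013), and Psmb4 from 127 and 136 to 154 and 144 (0.18 ± 0.047). Psmd5 fell from 67.9 and 73.6 to 63.1 and 58.0 (-0.22 ± 0.054, edgeR adjusted p = 0.0021). Psmd8 was thus called higher in each of the 4 interferon comparisons, with no overlap between the libraries before and after IFNβ. Its 4 calls were kept with each library left out, but for naive KO the single 2 h library could not be left out. All 4 were lost by gene count totals, where the changes were 0.037, 0.17, 0.18 and 0.14.

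The restimulation counts moved with single libraries. The WT count was 11 without WT pretreated 0 h replicate 2 and 2 without WT pretreated 2 h replicate 1, and 9 with RLE factors or with the replicate number as a term. The KO count was 3 without KO pretreated 0 h replicate 1 and 4 without KO pretreated 2 h replicate 2. The 2 genotypes differed in this response for Psmd5 (-0.24 ± 0.079) and Psmd3 (0.19 ± 0.063), both at an edgeR adjusted p of 0.049 (background 9.03%, 6.53% higher and 2.51% lower), and this count of 2 became 0 or 1 in all but 1 of the fits that leave out a library.

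The inducible catalytic genes stood apart from their constitutive counterparts in size of change. Psmb8 had 0 to 9 counts per WT library and 26 to 710 per KO library, and Psmb9 had 1 to 14 and 15 to 398, so neither gives a usable fold against WT. Psmb10 rose in naive WT cells from 12.4 and 12.6 to 15.8 and 16.0 TMM-scaled CPM (0.35 ± 0.080, edgeR adjusted p = 0.0012). Scaled by gene count totals, Psmb10 changed by 0.095 there and was not called (edgeR adjusted p = 0.62). In naive KO cells it rose from 13.9 in both libraries to 65.3 (2.23 ± 0.076, edgeR adjusted p = 1.3e-20), and in restimulated KO cells from 14.5 and 14.6 to 85.1 and 78.5 (2.49 ± 0.064, edgeR adjusted p = 5.9e-24). In restimulated WT cells it rose from 12.0 and 11.5 to 27.3 and 25.2 (1.17 ± 0.076, edgeR adjusted p = 2.8e-13). Its constitutive counterpart Psmb7 went from 103 and 106 to 123 in naive KO cells (0.24 ± 0.068, edgeR adjusted p = 0.0065). Per kilobase of exon, the highest KO value of each inducible gene (64.9 TMM-scaled CPM for Psmb10, 10.6 for Psmb8 and 7.78 for Psmb9) lay below the lowest KO value of its constitutive counterpart (89.0 for Psmb7, 76.7 for Psmb5 and 122 for Psmb6).

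**Figure D5:**
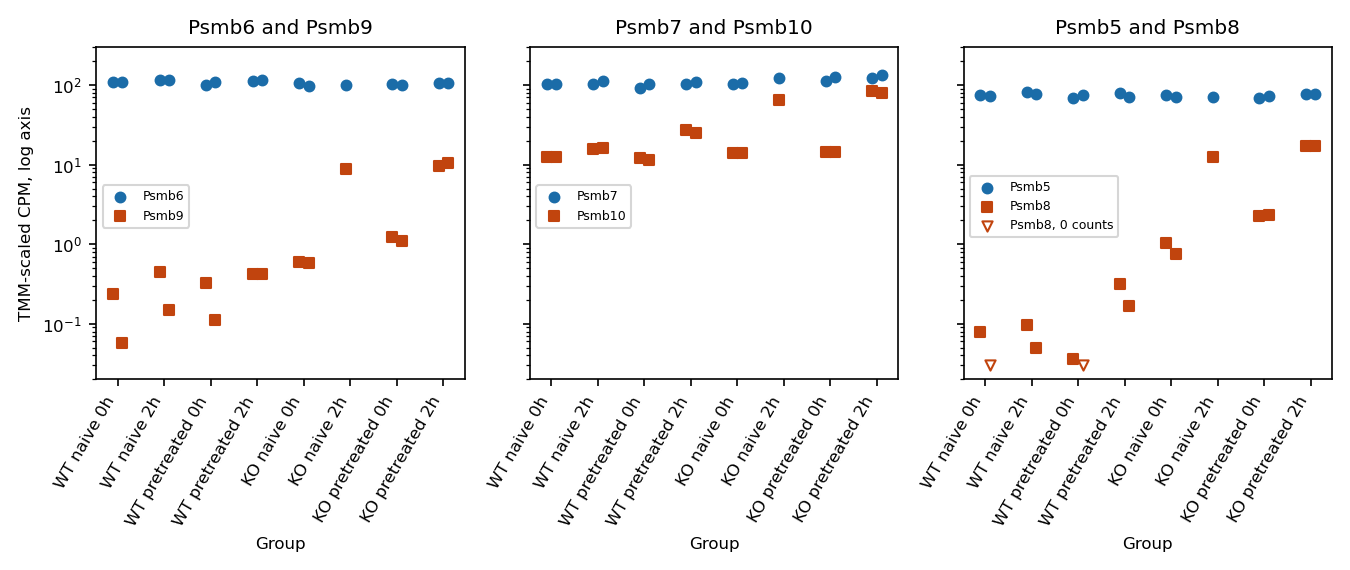
TMM-scaled CPM, on a log axis, of each constitutive catalytic gene (circles) and its inducible counterpart (squares, or open triangles for 0 counts) in the 15 libraries by group. The constitutive genes stay between 68.6 and 132, while the inducible genes are highest in the KO libraries with 2 h of IFNβ.

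Among the partner genes, the called counts in naive cells stand beside 30.6% of all genes called in WT (15% higher and 15.6% lower) and 36.2% in KO (19.1% higher and 17.2% lower). Of 15 assembly and 19S-associated genes, 5 rose in WT, with the smallest p values for Zfand2a (0.75 ± 0.075) and Zfand5 (0.30 ± 0.051). In KO, 5 rose and 1 fell, and the deubiquitinase Usp14 had the smallest p value (0.35 ± 0.056), beside larger log2 changes of Zfand2a (0.43) and Zfand5 (0.36). Pomp rose in all 4 interferon comparisons (0.17, 0.25, 0.21 and 0.30). By gene count totals its changes were -0.071, 0.040, 0.17 and 0.14, and all 4 calls were lost. By totals, 6 of the 15 called partner genes changed sign in naive WT and 2 of 15 in naive KO. Of 14 ubiquitin, shuttle and unfoldase genes, 4 rose in WT, and 3 rose and 1 fell in KO. Uba6, an alternative ubiquitin-activating enzyme, rose in all 4 comparisons (0.42, 0.56, 0.23 and 0.33). Its changes by totals were 0.18, 0.35, 0.19 and 0.18, and all 4 calls were lost there. Of 11 regulators, 3 rose and 3 fell in WT, and 1 rose and 4 fell in KO. Nfe2l1 fell from 265 and 262 to 208 and 219 TMM-scaled CPM in WT (-0.30 ± 0.042, edgeR adjusted p = 1.3e-06). In the same comparison Nfe2l2 rose from 61.6 and 63.1 to 96.5 and 101 (0.67 ± 0.046, edgeR adjusted p = 9.6e-13). Stat3 rose there as well (0.45, edgeR adjusted p = 4.8e-07).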

How the data were processed

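The submitters' protocols name TRIzol extraction, the NuGEN Ovation SP Ultralow kit and paired reads on a HiSeq2000 for all 15 libraries. Deposited values are raw read counts for each gene symbol. Tools named in the submitters' processing notes are bcl2fastq 2.15, STAR 2.5.2b and HTSeq, with mm9 as the genome. Which annotation and strand setting were used is not given in the sources used here. Overlapping genes, antisense genes and subunit genes with near-identical pseudogenes are therefore uncertain.

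HTSeq's 5 summary lines were left out. TMM factors (edgeR 4.0.16, R 4.3.3) ran from 0.895 to 1.22. After filterByExpr (minimum count 10), 13802 genes entered edgeR's quasi-likelihood test. The model had 1 term for each of the 8 groups, used all 15 libraries and left 7 residual degrees of freedom. A gene is called at a Benjamini-Hochberg adjusted p below 0.05 over all genes tested. The test script was checked on simulated data. The 12 comparisons were IFNβ in naive cells, pretreated against naive cells at 0 h, IFNβ in pretreated cells, KO against WT (naive 0 h, pretreated 0 h, and over the 4 conditions), and the genotype differences of the first 3. DESeq2 1.42.0 and the settings of the closing section were alternatives. Exon lengths came from GENCODE models on GRCm38, used for lengths only, and matplotlib 3.10.9 drew the figures.

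The members, partner lists, markers and alternatives were chosen with earlier results of these data known. Values by library, ranges over the libraries of a genotype, or group means are given for up to 4 called members per comparison with the smallest p. The same was done for those with the largest rise and fall and for the catalytic genes. Some called genes of each partner list are named. Genes beyond this rule were named to complete a class after their values were seen. The replicate pairs all differed by more than counting error, with chi-square divided by its degrees of freedom at 3.74 to 178. Since no separate cultures or animals are named, p-values reflect only how these libraries spread, which may be technical.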

Additional observations from a re-analysis of the deposited data

Results flagged for a closer look

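The response of naive cells to IFNβ differed between the genotypes, by the test of the difference itself, for 5 subunit genes. The log2 response in KO minus that in WT was 0.38 for Psma4, 0.31 for Psma3, 0.30 for Psma2, -0.22 for Psmd3 and -0.39 for Psmd9 (edgeR adjusted p 0.00091, 0.023, 0.0046, 0.032 and 0.046). The KO naive 2 h library behind each of these is a single one. The response of pretreated cells differed for Psmd3 (0.19) and Psmd5 (-0.24), both at an edgeR adjusted p of 0.049, and DESeq2 called 0 genes in that comparison.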

How the results depend on the processing

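Scaling by gene count totals moved the median of all genes by over 0.1, to -0.27 for IFNβ in naive WT, -0.23 in naive KO, -0.18 for pretreated against naive WT, -0.16 for restimulated KO, and 0.16 and -0.11 for the genotype differences of the last 2 responses. Of 46 named changes, 15 kept their call in every setting, 31 lost it in some (26 by totals) and 3 reversed, all by totals: Psmd12 (-0.072) and Psmd13 (-0.091) for IFNβ in naive WT, and Psmc4 (-0.029) for pretreated against naive WT. By totals, called members numbered 1 and 1 for IFNβ in naive WT and KO, 0 and 0 for pretreated against naive WT and KO, 0 and 1 for restimulated WT and KO, 15 and 10 for KO against WT at naive and pretreated 0 h, and 0 for the genotype differences of the naive and restimulated responses. With RLE factors, IFNβ in naive WT gave 10, restimulated WT 9 and its genotype difference 1. Without Rn45s and Lars2 these were 10, 12 and 1, and with only the groups compared 13, 2 and 0. Without the 3 libraries low in Rn45s and Lars2, IFNβ in naive WT gave 2, pretreated against naive 1 (WT) and 0 (KO), and the restimulation difference 0. With no filter the genotype differences gave 3 (naive), 2 (pretreated against naive) and 1 (restimulation), and DESeq2 gave 3 and 0 for the first and last. The cause was not tested.

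Leaving out each library in turn, the called members ranged from 1 to 10 and 11 to 18 for IFNβ in naive WT and KO, 1 to 4 and 0 to 11 for pretreated against naive, 2 to 11 and 3 to 8 for restimulation, 21 to 27 and 22 to 25 for KO against WT at naive and pretreated 0 h, 28 to 31 over the 4 conditions, and 2 to 5, 0 to 3 and 0 to 2 for the genotype differences. The KO naive 2 h library is the only one of its group and could not be left out for the comparisons that use it. With the replicate block, restimulated WT gave 9, and the genotype differences 8 (naive) and 2 (pretreated against naive), and no named call was lost. The replicate differences of the 7 groups with 2 libraries correlated at -0.0185 to 0.0643 over all genes tested, so the numbers were not taken to pair libraries.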
